A study of Mus musculus with 9 samples.

Results

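The C/EBP family and Gfi1 are transcription factors of granulocytes, the white blood cells that carry antimicrobial granules. The set comprised the rows of the RNA table named Cebpa, Cebpb, Cebpd, Cebpe, Cebpg, Cebpz and Gfi1, chosen by gene symbol, which gave 7 of 22942 rows. All 7 reached a mean of at least 1 FPKM (a level scaled by transcript length and sequencing depth) over both groups, as did 11538 rows in all.

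The series used mononuclear bone marrow cells from B6.SJL (CD45.1) mice, all of which had received retroviruses. The MLL-AF9 group carried MSCVneo-MLL-AF9 together with MSCVpuro, and the control group carried the same pair of vectors without the fusion gene, so both groups shared the MSCVneo and MSCVpuro backbones. MLL-AF9 is a leukemia fusion protein joining the histone methyltransferase MLL to AF9. PolyA RNA was sequenced from 3 control and 3 MLL-AF9 samples, but the authors' table gives 1 pooled value per gene and group, with a p-value and a q-value from their own comparison. Spread between samples and sequencing depth are therefore unknown, no error can stand beside a level, and levels that lie close together cannot be ordered with confidence. The labels do not give the time after transduction, the age of the mice, or whether the samples came from separate animals, and MLL-AF9 was supplied by a retrovirus rather than from its own locus. The RNA was bulk RNA of a mixed population, so fewer cells of a type and less RNA per cell cannot be told apart in any value below.

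C/EBP proteins are basic leucine zipper (bZIP) factors that pair with each other and bind short palindromic DNA sites. Within the granulocyte lineage C/EBPα acts at the step into granulocyte and monocyte progenitors, C/EBPε is needed for the late granule proteins, and C/EBPβ and C/EBPδ are induced by cytokines and inflammation. C/EBPγ lacks a strong activation domain and can dampen its partners. Cebpz is named for binding a CCAAT box but encodes a nucleolar protein of the NOC family, which takes part in ribosome assembly, and is not a bZIP factor. Gfi1 encodes a zinc finger repressor that recruits the demethylase LSD1 (Kdm1a) and histone deacetylases and favours the neutrophil over the monocyte fate.

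Upstream sequences of 4 of the 7 genes were found in the RefSeq promoter table of build GRCm38.p6, as 5 windows because Gfi1 has alternative starts. The part upstream of the start, 250 bases, was searched on both strands for a C/EBP core site (TTGCNNAA), part of the GFI1 consensus (AAATC), the CCAAT box (CCAAT) and the TATA box (TATAAA), and no match overlapped another. These 3 windows are printed because each holds a match, shown in capitals, 5′ to 3′ along the gene's own strand. The Gfi1 window lies at chr5:107725806-107726055 on the minus strand, the Cebpa window at chr7:35119043-35119292 on the plus strand and the Cebpg window at chr7:35056567-35056816 on the minus strand.
Gfi1: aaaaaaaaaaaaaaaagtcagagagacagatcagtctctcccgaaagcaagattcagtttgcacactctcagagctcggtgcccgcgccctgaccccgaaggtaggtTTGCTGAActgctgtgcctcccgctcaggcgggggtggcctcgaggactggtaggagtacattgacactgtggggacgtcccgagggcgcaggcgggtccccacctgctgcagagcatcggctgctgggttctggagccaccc
Cebpa: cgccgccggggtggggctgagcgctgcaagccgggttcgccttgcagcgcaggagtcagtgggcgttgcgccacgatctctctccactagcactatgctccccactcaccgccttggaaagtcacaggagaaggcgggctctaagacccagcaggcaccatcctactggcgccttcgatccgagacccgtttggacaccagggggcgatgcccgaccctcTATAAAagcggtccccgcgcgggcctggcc
Cebpg: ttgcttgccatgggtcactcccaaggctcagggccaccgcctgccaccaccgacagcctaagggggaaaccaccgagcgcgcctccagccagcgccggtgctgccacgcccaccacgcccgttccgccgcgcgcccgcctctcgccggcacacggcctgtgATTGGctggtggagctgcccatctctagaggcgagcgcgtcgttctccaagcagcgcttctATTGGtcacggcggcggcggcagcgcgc

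Of the 5 windows, 1 held the C/EBP core, that of the Gfi1 start printed above, where the match began 143 bases before the start. Over all 32851 windows of the table, 9.56% held this motif. Of the 5 windows, a TATA box was found in that of Cebpa, beginning 30 bases before the start, against 12.4% of all windows. The Cebpg window had 2 CCAAT boxes, both on the opposite strand, and 33.8% of all windows held at least 1. The letters AAATC were in none of the 5 windows and in 32.7% of all windows. The Cebpb window and the other Gfi1 window held no match to any of the 4 motifs. A match is a run of letters, and binding was not measured at these windows.

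The comparison asked how RNA levels of these factors differed between MLL-AF9 and control cells. Gfi1 rose, and the other 6 genes did not pass the threshold of the authors' q-value under 0.05. Cebpd and Cebpe had the largest differences among them, both with lower values in MLL-AF9 cells. In all, 1 of the 7 genes was called, compared with 10.3% of the 11538 expressed genes, and by direction 1 was called higher (5.13% of expressed genes) and 0 lower (5.20%). At an unadjusted p under 0.05 in the authors' deposited table, 3 of the 7 passed, compared with 19.8% of expressed genes, and the same 3 had an FPKM ratio of at least 2 in either direction, as 24.8% of expressed genes had. With 7 genes, these shares are a description and call nothing particular to the family.

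Gfi1 stood at 22.2 FPKM in control and 65.0 FPKM in MLL-AF9 cells. The MLL-AF9 value was 2.93 times the control value, a change of 1.51 on the log2(FPKM + 1) scale, with p = 0.00258 and q = 0.0286 in the authors' deposited table. The median expressed gene was 0.29 higher in MLL-AF9 cells on the same scale, and relative to that median the Gfi1 difference was 1.22. Among expressed genes 727 had a ratio at least as high as that of Gfi1, itself included, and 447 of these were called. Of the 592 genes called higher, 446 had a larger ratio, 491 a smaller q-value and 95 a higher FPKM in MLL-AF9 cells. Gfi1 was thus among the more abundant of the genes that rose while lying in the lower part of their order by fold.

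Cebpe, the factor of late granule genes, had the highest value of the 7 in both groups. It was listed at 188 FPKM in control and 83.7 FPKM in MLL-AF9 cells, 2.24-fold lower, a difference of -1.16 on the log2 scale, with p = 0.0247 and q = 0.148 in the authors' deposited table. The level exceeded that of 95.5% of expressed genes in control and 89.5% in MLL-AF9 cells. Of the 965 expressed genes with a ratio at least as low, 60.2% were called, and Cebpe was among those that were not.

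Cebpd was listed at 52.8 FPKM in control and 22.1 FPKM in MLL-AF9 cells. This was the largest difference toward lower values among the 7, 2.39-fold and -1.22 on the log2 scale, with p = 0.0190 and q = 0.123 in the authors' deposited table. Cebpb, the other cytokine-induced member, was listed at 52.6 FPKM in control, next to Cebpd, and at 32.3 FPKM in MLL-AF9 cells. Its 1.63-fold lower value had p = 0.182 and q = 0.487 in the authors' deposited table. Levels of this pair were nearly equal in control cells, with a Cebpb to Cebpd ratio of 0.997, whereas in MLL-AF9 cells the ratio was 1.46.

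Cebpa, the factor of the granulocyte and monocyte progenitor step, was listed at 30.1 FPKM in control and 39.0 FPKM in MLL-AF9 cells. Its log2 difference of 0.36 lay 0.07 above the median expressed gene, and the authors' deposited table gives q = 0.747 for Cebpa. It was the only bZIP member of the set with a higher value in MLL-AF9 cells. Cebpg, its neighbour on chromosome 7, had the smallest value of the set in either group, at 16.3 FPKM in control and 12.7 FPKM in MLL-AF9 cells (the authors' deposited table gives q = 0.763). The control value of Cebpg lay close to the 16.9 FPKM of Cebpz, so their order there is uncertain. The log2 difference of Cebpg was -0.34, of opposite sign to that of Cebpa, and neither gene passed.

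Cebpz, the nucleolar protein, was listed at 16.9 FPKM in control and 24.2 FPKM in MLL-AF9 cells, a log2 difference of 0.50, for which the authors' deposited table gives q = 0.630. Relative to the median expressed gene this was 0.20.

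**Figure D1:**
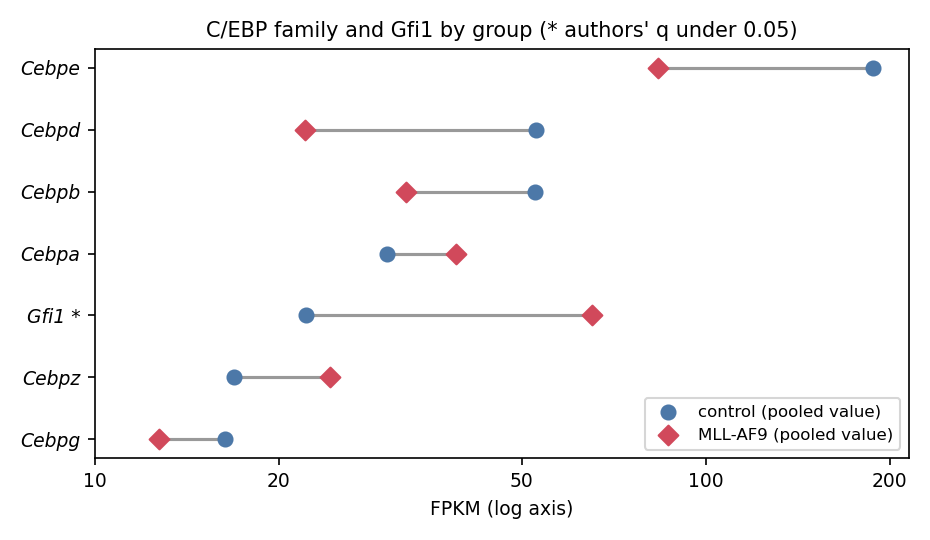
FPKM of the 7 genes (log axis) in control (circles) and MLL-AF9 cells (diamonds), 1 pooled value per group without error bars, ordered by the control value. The asterisk marks Gfi1, the only gene with q under 0.05 in the authors' deposited table, which rose from 22.2 to 65.0 FPKM, while Cebpe and Cebpd had values more than 2-fold lower in MLL-AF9 cells.

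**Figure D2:**
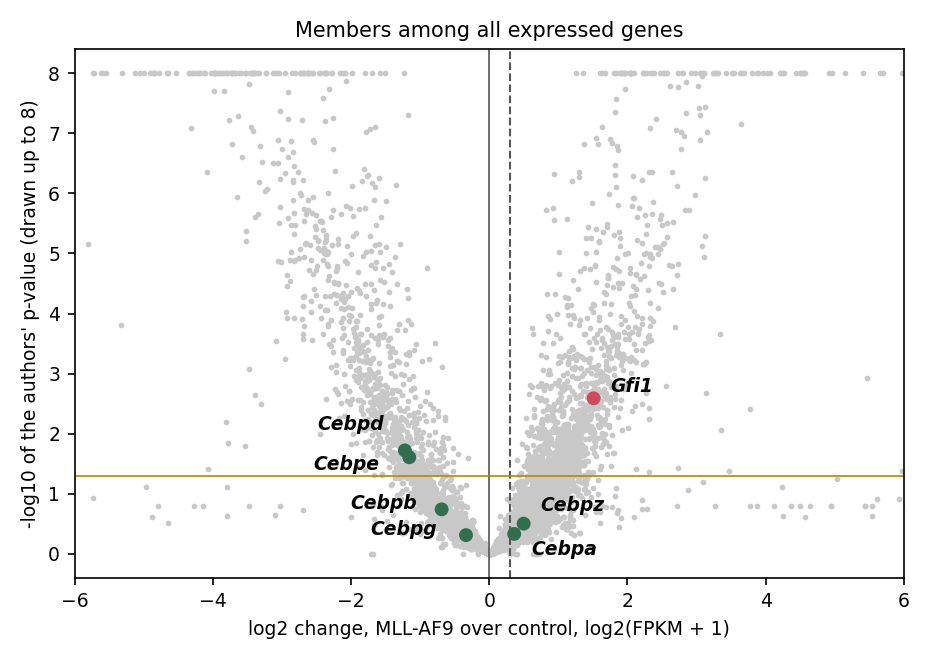
Log2 change on the log2(FPKM + 1) scale (x axis, MLL-AF9 over control, drawn from -6 to 6) against -log10 of the p-value in the authors' deposited table (y axis, values above 8 drawn at 8) for the 11538 expressed genes in grey. Gfi1 is red and the Cebp genes are green, the solid vertical line marks 0, the dashed line the median of 0.29 and the horizontal line an unadjusted p of 0.05, above which Gfi1, Cebpd and Cebpe lie.

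The order of the genes by level differed between the groups. In control cells Cebpe was followed by Cebpd, Cebpb, Cebpa, Gfi1, Cebpz and Cebpg. In MLL-AF9 cells the order was Cebpe, Gfi1, Cebpa, Cebpb, Cebpz, Cebpd and Cebpg. FPKM is scaled by transcript length, so levels of different genes can be set side by side. In control, Cebpd and Cebpb were close in value, as were Cebpz and Cebpg, and in MLL-AF9 cells Cebpz and Cebpd were. Whether the genes of such a pair differ beyond the spread between samples cannot be judged from pooled values.

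The 5 bZIP genes summed to 340 FPKM in control and 190 FPKM in MLL-AF9 cells, 1.79-fold lower. Most of that gap was Cebpe, since without it the sums were 152 and 106 FPKM, 1.43-fold apart. Cebpe made up 55.3% of the control sum and 44.1% of the MLL-AF9 sum. Cebpa made up 8.87% in control and 20.5% in MLL-AF9 cells, and Cebpd 15.5% and 11.6%. Cebpb, at 15.5% and 17.0%, and Cebpg, at 4.81% and 6.71%, differed least in percentage points.

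**Figure D3:**
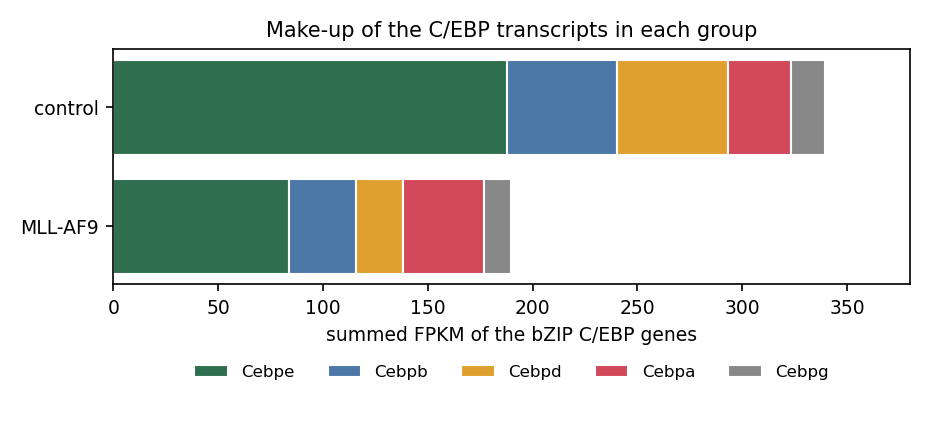
Summed FPKM of the 5 bZIP C/EBP genes in control and MLL-AF9 cells (x axis, starting at 0), each bar split by gene, from 1 pooled value per group. The bar ends at 340 FPKM in control and 190 FPKM in MLL-AF9 cells, and the Cebpe segment takes 55.3% and 44.1% of the bars and the Cebpa segment 8.87% and 20.5%.

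Ratios between genes of the same group do not change with a single scaling factor between the groups, though quantile normalization can change them. The Gfi1 to Cebpe ratio was 0.118 in control and 0.777 in MLL-AF9 cells, a 6.58-fold difference. For Gfi1 to Cebpd the ratio was 0.420 in control and 2.95 in MLL-AF9 cells, so Gfi1 went from the lower to the higher of the pair. The Cebpa to Cebpe ratio was 0.160 and 0.466, and the Cebpa to Cebpb ratio 0.573 and 1.21. By contrast the Cebpd to Cebpe ratio was nearly the same, at 0.281 in control and 0.264 in MLL-AF9 cells. No test of a ratio was possible with 1 value per group.

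Genes beside or over the members were compared because unstranded libraries would not separate reads of overlapping genes. In the RefSeq annotation of GRCm38, used for gene order only, Cebpd is overlapped by Spidr, a DNA repair gene listed under an older name at 15.7 FPKM in control and 18.2 FPKM in MLL-AF9 cells. Spidr had its slightly higher value in MLL-AF9 cells, opposite to Cebpd. Cebpz is overlapped by Cebpzos, which was listed at 7.13 and 7.69 FPKM in control and MLL-AF9 cells. Cebpg is overlapped by a predicted gene that was not matched to a row, and Cebpa, Cebpb, Cebpe and Gfi1 had no overlapping protein-coding gene. On the flanks, Evi5 next to Gfi1 was listed at 6.64 FPKM in control and 9.21 FPKM in MLL-AF9 cells (the authors' deposited table gives q = 0.681), and Slc7a8 next to Cebpe at 3.44 and 5.99 FPKM (the authors' deposited table gives q = 0.513). Pepd next to Cebpg was listed at 15.2 and 32.2 FPKM in control and MLL-AF9 cells, with p = 0.0479 and q = 0.224 in the authors' deposited table. Beside Cebpb, Ptpn1 was listed at 55.7 and 34.9 FPKM and Tmem189 at 40.9 and 29.6 FPKM in control and MLL-AF9 cells. Both had lower values in MLL-AF9 cells, as Cebpb did, and neither passed. Slc7a10, which flanks Cebpa, was listed at 0 in both groups. Of the 11 flanking and overlapping genes with a row above 0, members aside, 0 were called by the authors' q-value and 1, Pepd, had an unadjusted p under 0.05. Over all expressed genes the shares were 10.3% and 19.8%. The 11 genes were not filtered by level, and Pkp2 and Sult6b1 among them lay below a mean of 1 FPKM. These counts among 11 genes are therefore a description only.

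The genes most like Gfi1 were found by distance over the 2 pooled log2(FPKM + 1) values. Dock10, at 22.0 FPKM in control and 66.7 FPKM in MLL-AF9 cells, lay at a distance of 0.04, Ipo7 (22.7 and 65.9 FPKM) also at 0.04, and Pds5a (20.9 and 64.1 FPKM) at 0.08. With 2 values per gene, likeness covers level and change only.

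Partners of C/EBP proteins mostly did not pass, like most expressed genes, of which 10.3% did. Of 11 listed bZIP relatives, which pair with C/EBP factors or bind related sites, 10 were expressed, 1 rose and 0 fell, with a median log2 change of 0.55 against 0.29 over all expressed genes. The gene that rose was Atf3, a stress-induced repressor, at 4.91 FPKM in control and 28.6 FPKM in MLL-AF9 cells (the authors' deposited table gives q = 0.00152). Nfil3, a bZIP factor regulated by interleukin-3, was listed at 23.3 and 53.4 FPKM, for which the authors' deposited table gives q = 0.136. Ddit3, the stress factor also known as CHOP or C/EBPζ, a bZIP protein distinct from the product of Cebpz, was listed at 24.8 and 21.0 FPKM, for which the authors' deposited table gives q = 0.880. These 2 genes are named after their values were seen.

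Among regulators of C/EBP expression or activity, 11 of 13 listed genes were matched to a row. Pcbp2 and Csf3r were not matched, so their levels are unknown. Of the 11 matched genes, 10 were expressed, 0 rose and 3 fell. Their median log2 change was -0.06 against 0.29 over all expressed genes, of which 5.13% were called higher and 5.20% lower. Trib2, a pseudokinase that targets C/EBPα for degradation, fell 42.2-fold, from 4.37 FPKM in control to 0.103 FPKM in MLL-AF9 cells. Lef1, a Wnt pathway factor that can activate Cebpa, fell 16.6-fold from 2.57 to 0.155 FPKM. The MLL-AF9 values of Trib2 and Lef1 were well below 1 FPKM, so the size of these folds is imprecise. On the log2(FPKM + 1) scale the changes were -2.28 for Trib2 and -1.63 for Lef1. Rara, the retinoic acid receptor whose ligand induces Cebpe, fell 3.17-fold from 37.5 to 11.8 FPKM (the authors' deposited table gives q = 5.68e-08). Trib2 and Lef1 are also expressed by lymphoid cells, and in the same comparison all 9 expressed B lymphoid markers had lower values in MLL-AF9 cells and 8 fell, while all 8 T and NK markers fell. The summed B lymphoid markers stood at 664 FPKM in control and 37.6 FPKM in MLL-AF9 cells, and the T and NK markers at 63.7 and 3.52 FPKM, with no marker at 0. Their part in the Trib2 and Lef1 values was not tested. Trib1, the other pseudokinase of this kind in myeloid cells, was listed at 11.9 FPKM in control and 14.6 FPKM in MLL-AF9 cells (the authors' deposited table gives q = 0.812).

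Granulocyte genes, among them granule proteins and surface proteins, were listed by stage, and the difference between the early and the late list was not tested. Whether each listed gene is a target of C/EBP factors was not examined. Of 9 early granulocyte genes, 0 rose and 1 fell. Their median log2 change was 0.36 against 0.29 over all expressed genes, of which 5.13% were called higher and 5.20% lower. The gene that fell was Fcnb, which encodes ficolin B, from 361 to 83.5 FPKM (the authors' deposited table gives q = 0.00187). Ctsg, the cathepsin G gene, was listed at 374 FPKM in control and 955 FPKM in MLL-AF9 cells with p = 0.0227 and q = 0.139 in the authors' deposited table. Lyz2, the lysozyme gene, was listed at 12233 and 890 FPKM without passing (the authors' deposited table gives q = 0.101).

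Of 16 late granulocyte genes with a usable value, 11 fell and 1 rose. Over all expressed genes, 5.20% were called lower and 5.13% higher. The list had a median log2 change of -3.16 against 0.29 over all expressed genes. This list overlaps one whose fall was already known when it was chosen. Mmp8, the neutrophil collagenase, fell 50.8-fold, and Cxcr2, a chemokine receptor of mature neutrophils, fell 16.8-fold from 182 to 10.9 FPKM. Olfm4, a granule protein of a neutrophil subset, was the gene that rose, at 40.1 FPKM in control and 282 FPKM in MLL-AF9 cells. Summed over the 16 genes the FPKM was 8.30-fold lower in MLL-AF9 cells. The sum of the early list was 2.71-fold lower. Without Lyz2 the other 8 early genes summed to 3780 FPKM in control and 5028 FPKM in MLL-AF9 cells, 1.33 times the control sum. Leaving out Lyz2 was not planned in advance, and the late sum kept all 16 genes. Of the late control sum of 201013 FPKM, S100a8 alone made up 130850 FPKM. Beside these sums, Cebpe was 2.24-fold lower without passing.

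Among markers of other cell types, those that passed mostly fell, and only Cpa3 and Vwf rose. Over all expressed genes 5.13% were called higher and 5.20% lower. Eosinophils, which also use C/EBPε, had 6 expressed markers of 7, of which 4 fell and 0 rose, and the sum of all 7 was 313 FPKM in control and 63.2 FPKM in MLL-AF9 cells. Of 9 monocyte and macrophage markers 4 fell and 0 rose, and the sums were closer, at 420 and 389 FPKM. Those that fell were C1qa, C1qb, C1qc and Mrc1. Csf1r, Cd68, Cx3cr1 and Emr1 had higher values in MLL-AF9 cells and Ccr2 a lower value, and none of them passed. Of 8 erythroid markers 6 fell, with sums of 234 and 17.4 FPKM. Of 7 mast cell and basophil markers 1 rose and 2 fell, with sums of 465 and 409 FPKM. Cpa3, a mast cell protease, rose 6.43-fold, while Hdc, which makes histamine, fell 9.95-fold and Fcer1a, an IgE receptor chain, 24.9-fold. Of 6 megakaryocyte markers 1 rose and 1 fell, with sums of 25.4 and 16.7 FPKM. Vwf, von Willebrand factor, rose 4.54-fold between low values, from 0.450 FPKM in control to 2.04 FPKM in MLL-AF9 cells. Pf4, platelet factor 4, fell 7.77-fold. No marker of these lists was at 0 in either group. The part of any of these cell types in the values of Cebpd and Cebpe was not tested.

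Corepressors of GFI1 had no member that passed in the authors' deposited table. Of 12 listed, 10 were matched to a row, and Ehmt2 and Pias3 were not. Of the 10 matched genes, 8 were expressed, 0 rose and 0 fell, and 0 had an unadjusted p under 0.05. Over all expressed genes 10.3% were called and 19.8% had such a p-value, so counts among 8 genes are a description only. The median log2 change was 0.37 against 0.29 over all expressed genes. Kdm1a, the demethylase recruited by GFI1, was listed at 20.7 FPKM in control and 24.7 FPKM in MLL-AF9 cells. Its partner Rcor1 (CoREST) was listed at 12.6 and 25.8 FPKM with p = 0.0520 and q = 0.237 in the authors' deposited table. Hdac1 was listed at 83.5 and 95.5 FPKM.

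Genes listed as repressed by GFI1 changed in both directions. Of 15 expressed members, 4 rose, 2 fell and 9 did not pass, while over all expressed genes 5.13% were called higher and 5.20% lower. The median log2 change was 0.42 against 0.29 over all expressed genes. The genes that rose were Hoxa9, Meis1, Egr1 and Cdkn1a. Hoxa9 and Meis1 are also direct targets of MLL fusions. Egr1, an immediate early factor tied to the monocyte fate, rose from 7.72 to 58.6 FPKM, and the cell cycle inhibitor Cdkn1a from 6.13 to 29.8 FPKM. Among the genes that fell, the monocyte growth factor Csf1 went from 9.14 to 2.36 FPKM, 3.87-fold lower. Gfi1b, the close relative of Gfi1 in red cells and platelets, was listed at 8.28 FPKM in control and 8.69 FPKM in MLL-AF9 cells (the authors' deposited table gives q = 0.962). The Gfi1 to Gfi1b ratio was 2.68 in control and 7.48 in MLL-AF9 cells.

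Among other factors of the granulocyte and monocyte branch, 13 of 14 listed genes were matched to a row. Spi1 was not matched, so its level is unknown. All 13 matched genes were expressed, 2 rose and 2 fell. Their median log2 change was 0.43 against 0.29 over all expressed genes, of which 5.13% were called higher and 5.20% lower. Myb, a factor of immature blood cells, rose 4.59-fold from 61.3 to 282 FPKM, and Egr1 rose as above. Lmo4, a LIM cofactor, fell from 147 to 64.7 FPKM, and Rara fell as above. Irf8, which drives the monocyte branch and opposes C/EBPα, was listed at 90.7 FPKM in control and 198 FPKM in MLL-AF9 cells, with p = 0.0446 and q = 0.214 in the authors' deposited table. The Klf4 gene of monocytes was listed at 30.3 and 41.3 FPKM without passing.

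Cebpz was set beside ribosome assembly genes, whose 10 expressed members all had higher values in MLL-AF9 cells. Of these 10, 1 rose and 0 fell, compared with 5.13% and 5.20% of expressed genes. The list held 12 genes, of which Noc2l and Npm1 were not matched to a row. The median log2 change was 0.92 against 0.29 over all expressed genes. Wdr12, a factor of the large ribosomal subunit, rose 2.31-fold to 21.1 FPKM (the authors' deposited table gives q = 0.0135). Noc3l, which belongs to the NOC family as the product of Cebpz does, was listed at 3.17 and 7.01 FPKM, and Nop58, a core box C/D protein, at 36.4 and 81.2 FPKM, and neither passed. The Cebpz difference of 0.50 was smaller than each of the 10. Among all expressed genes, 37.6% had a ratio at least as high as that of Cebpz, itself included.

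**Figure D4:**
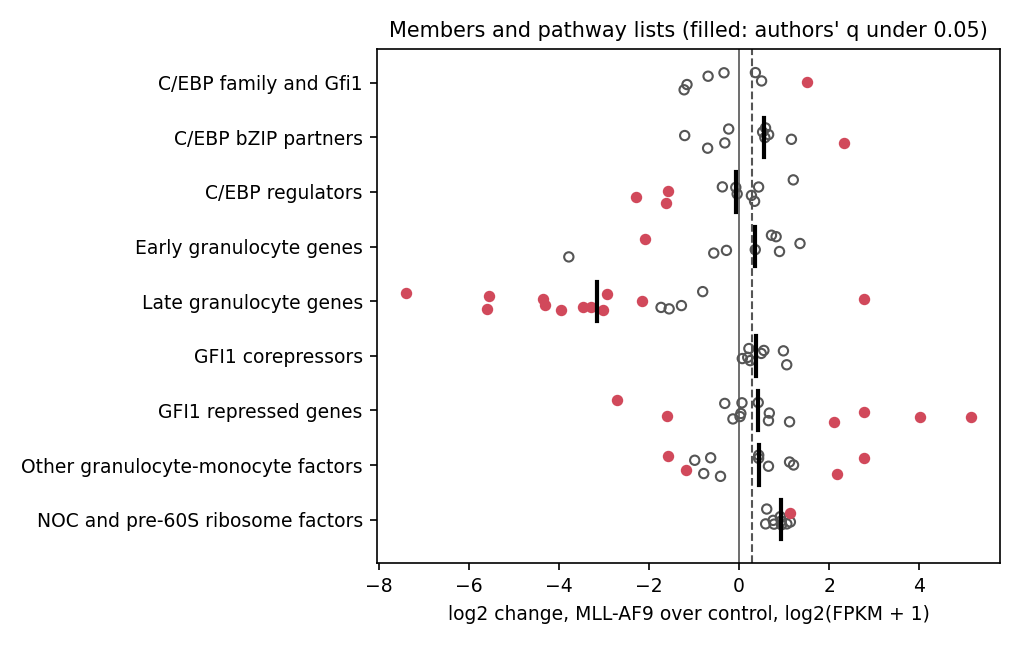
Log2 change on the log2(FPKM + 1) scale (x axis, MLL-AF9 over control) of the 7 members in the top row and of the expressed genes of 8 pathway lists below, 1 point per gene with vertical scatter only for legibility. Filled points had q under 0.05 in the authors' deposited table, black bars are list medians, the solid line marks 0 and the dashed line the median of all expressed genes at 0.29; the late granulocyte genes lie at a median of -3.16, far left of the members.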

How the data were processed

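PolyA RNA of 3 control and 3 MLL-AF9 samples was measured, and the deposited table holds 1 pooled value per gene and group. The header names no unit, and the values were taken as FPKM made by the authors, from Cufflinks in the submitters' processing notes and the range of values. Those notes list CASAVA 1.8.2, Bowtie 0.17.2, TopHat 1.4.1, Cufflinks 1.3.0 and MACS 1.4 with build mm9, and the sources used here do not state their roles or settings. The p-value and q-value per row are from the authors' own comparison, per the file headers, and its test is not stated. The labels' protocols speak of duplicates for RNA although 3 samples per group are listed, so it is not known which entered the pooled values.

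Genes with a mean of both groups of at least 1 FPKM were called at a q-value under 0.05, and no new test was computed. S100a9 was dropped as an estimate that failed, being at 10526 FPKM in MLL-AF9 cells and 0 in control while its p-value is 1. Log2 changes used a pseudocount of 1 FPKM, which understates changes of low genes. The 15 gene lists hold 158 entries, of which 149 had a usable row. Some genes stand in more than 1 list. Members, lists and rules were chosen with earlier results of these data known. The members were named in any case, with up to 4 called genes per list by smallest q-value, though some genes that this rule allows are not named. A called gene of the list of genes repressed by GFI1 is not reported here by name. For members called, the 3 nearest genes were named. Other list genes, Olfm4, Cdkn1a and Csf1 among them, were chosen after their values were seen. The 5hmC region lists are in mm9 and were not used, since positions of these genes in mm9 were not at hand. Alternatives were other pseudocounts, filters, scalings and thresholds. Steps were tested on simulated data. Python 3.11.15, numpy 2.4.6, pandas 2.3.3, scipy 1.17.1 and matplotlib 3.10.9 were used.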

Additional observations from a re-analysis of the deposited data

How the results depend on the processing

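Over the 4 alternatives for each of the 7 members (pseudocounts of 0.1 and 0.5 FPKM, quantile normalization and centring on the median expressed gene), all 28 log2 changes kept their sign. Gfi1 lay between 1.22 and 1.55 and Cebpe between -1.45 and -1.16, while 3 members moved by over 1.5 times under quantile normalization and after centring. Cebpa went from 0.36 to 0.20 and 0.07, Cebpg from -0.34 to -0.60 and -0.63, and Cebpz from 0.50 to 0.25 and 0.20. The numbers of members called, 1 higher and 0 lower, were the same at a q-value under 0.1, with p-values readjusted over expressed genes, without a filter on low values and with a mean of at least 5 FPKM. Readjusted over expressed genes, the p-value of Gfi1 was 0.0294, that of Cebpd 0.131 and that of Cebpe 0.158. Numbers of genes called stayed within 1.5 times of 592 higher and 600 lower. Of 90 list medians under alternatives, 1 changed sign, that of the C/EBP regulators, from -0.06 to 0.11 with a mean of at least 5 FPKM, where Trib2 and Lef1 are left out as low. Quantile normalization moved the median expressed gene from 0.29 to 0.09. Centring takes 0.29 from each median, which left 0.06 for the early granulocyte genes, 0.07 for the GFI1 corepressors, 0.13 for the genes repressed by GFI1, 0.14 for the other factors, 0.25 for the bZIP partners and -0.35 for the C/EBP regulators. Under quantile normalization the corepressors were at 0.20, the other factors at 0.17, the bZIP partners at 0.28 and the C/EBP regulators at -0.12. With a mean of at least 5 FPKM the corepressors were at 0.23. No paired analysis was possible because the table gives 1 pooled value per group, and for the same reason no sample could be left out in turn. Depth is unknown.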
